A study of Mus musculus with 10 samples.

Results

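Open chromatin at and around Isl1 was followed across 5 ATAC-seq libraries and 3 Sox4 CUT&RUN replicates of the mouse cochlea at E13.5. Isl1 lies on the minus strand of chromosome 13 (mm10, 116298270 to 116309688). Every peak within 500 kb of either end of the gene was taken. These peaks gave 118 of the 319998 autosomal ATAC regions, and 30 of the 71631 regions that had a peak in all 5 ATAC libraries. The gene was chosen because its open regions held lower places in the knockout peak lists, so the wildtype against knockout values are given as a description, with no test.

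Per the protocols, the epithelial layer of the cochlear duct was freed with dispase and collagenase for all samples, while the titles of the ATAC samples say whole organ. ATAC-seq, in which the transposase Tn5 cuts accessible DNA, was made from unsorted tissue of wildtype embryos (3 libraries) and of embryos labelled SoxC double knockout (2 libraries). The labels of the ATAC samples name neither the deleted SoxC genes nor the Cre driver. A single-cell sample of the same genotype label carries the strain name Pax2creSoxCfl/fl. The Sox4 libraries (3 replicates) came from GFP positive cells sorted from p27kip1-GFP embryos of wildtype genotype, with a guinea pig antibody against Sox4 and no control antibody library used here. Nothing in the labels says that replicates came from separate litters, and the spread between them may be technical. Fewer cells of a type and less open chromatin per cell cannot be told apart in unsorted tissue.

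Isl1 encodes a LIM-homeodomain transcription factor that acts in complexes held together by Ldb cofactors. In the developing inner ear it is known from the early prosensory epithelium and from the neurons of the spiral ganglion, where Pou4f1 is a frequent companion. SoxC factors (Sox4, Sox11 and Sox12) are HMG-box activators expressed in progenitors and young neurons, and the distal elements of developmental regulators such as Isl1 often lie in long stretches without other genes.

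The annotation fits that description of the gene's surroundings. Isl1 was the only coding gene within 500 kb, as for 133 of 20665 autosomal coding genes (0.644%), against a median of 17 other coding genes. The annotated neighbours in that distance were the pseudogene Rpl34-ps2, 144136 bp away, and the non-coding RNA gene 4930435F18Rik, 492407 bp away. The nearest coding genes were Parp8 at 541154 bp and Emb at 910885 bp. The regions within 500 kb that are away from the gene itself are therefore intergenic with respect to coding genes.

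The 250 bases before the annotated start of Isl1 are shown because the strongest open region at the gene, and the one with the largest change of place, covered them. They lie at chr13:116309689-116309938 on the minus strand (GRCm38.p6, the mm10 build), are credited to RefSeq, and run 5′ to 3′ towards the start. Capitals mark the single match to the E-box motif.
Isl1 promoter: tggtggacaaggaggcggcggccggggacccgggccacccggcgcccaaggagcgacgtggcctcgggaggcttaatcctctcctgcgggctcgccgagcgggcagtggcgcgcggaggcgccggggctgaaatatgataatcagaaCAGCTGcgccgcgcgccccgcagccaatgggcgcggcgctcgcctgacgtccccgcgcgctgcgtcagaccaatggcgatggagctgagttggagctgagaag
The GC content was 71.2%, higher than in 92.2% of 32851 promoters of the same length, whose median was 52.4%. There were 33 CpG dinucleotides, against a median of 6. On both strands, with overlapping matches counted, the E-box CANNTG matched once, 103 to 98 bases before the start, and 66.2% of all promoters held a match. The Sox cores ACAAAG and ACAAT, the LIM-homeodomain core TAATTA and the GATA core AGATAA had no match in this window. They were found in 16.5%, 27.7%, 4.84% and 9.99% of promoters. Only these forms of the motifs were searched. The window holds TGATAA, which differs in its first base from the GATA form searched and was not counted. The sequence and its matches describe the window only.

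Places in the lists were compared through ranks. Within each library, overlapping peaks were merged and ordered by −log10 p, so that rank 1 is the strongest peak. Equal values were ordered by fold enrichment and then by position. Many weak peaks of a list, Sox4 windows included, shared the same values, so their exact ranks are partly arbitrary. Summits were widened by 250 bp on each side before regions were formed across libraries. The merged autosomal lists held 165038, 145099 and 173032 peaks for wildtype, and 208902 and 192810 for knockout. The read depth is unknown, and the median −log10 p of a list was 23.8 and 14.0 for knockout but 8.42, 6.60 and 4.93 for wildtype, so a −log10 p is read here only beside the same count over all regions. A region is called lower in the knockout where all 3 wildtype ranks were better than both knockout ranks. This held for 30.0% of all regions, and the reverse for 24.5%. The change is given as log2 rank in the knockout minus wildtype, and a positive value is a lower place in the knockout. Fold enrichment is the authors' ratio of a peak to the local background of its own library.

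The tissue label was checked at gene ends. All 8 epithelial marker genes had an open region within 1 kb of a gene end in all 5 libraries. At Epcam, an epithelial adhesion molecule, that region ranked 1744, 3037 and 3584 in wildtype, against 5436 and 2503 in knockout. Of the 7 autosomal markers of blood, endothelium and macrophages, 2 had such a region in all 3 wildtype lists (Kdr and Spi1), as did 5 of 9 autosomal markers of otic mesenchyme. So did all 7 autosomal markers of glia and melanocytes and 14 of 16 of spiral ganglion neurons. Of 20665 autosomal coding genes, 13267 had their best wildtype-ranked region at a gene end in all 5 libraries. The check therefore does not single out epithelium.

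The start of Isl1 was among the strongest open regions of the wildtype lists and far from the top of the knockout lists. The region (116309480 to 116310002) ranked 1812, 1375 and 900 in wildtype, against 23673 and 24488 in knockout. The groups did not overlap, and both knockout libraries lay close together. The geometric mean rank was 1309 in wildtype and 24077 in knockout, 18.4 times as large. This is a log2 change of 4.20, with an SD of log2 rank of 0.51 in wildtype (n = 3) and 0.03 in knockout (n = 2). Relative to list length, the peak stood within the top 1.10%, 0.948% and 0.520% in wildtype and at 11.3% and 12.7% in knockout.

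Fold enrichment at the start moved the same way by a smaller factor. It was 15.8, 14.4 and 13.8 in wildtype, against 9.17 and 8.60 in knockout. Both knockout values were below all wildtype values, at 14.7 ± 1.04 (SD, n = 3) and 8.89 ± 0.400 (SD, n = 2), a ratio of 0.607. The −log10 p values themselves overlapped, at 257, 163 and 143 in wildtype, against 260 and 133 in knockout. The peak was present in all 5 libraries at the same position, with summits 42 to 64 bp before the annotated start and widths of 710 to 936 bp.

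A rank change of this size was found in few regions. The length of the lists leaves no room for it in most regions, which ranked too low in wildtype, so the share over all regions was bound to be small. Of the 71631 regions, 62 (0.0866%) fell in rank by as much, the Isl1 start included. Among the 1902 regions with a geometric mean wildtype rank of 2000 or better there were 54 (2.84%), and among the 1439 of them at gene ends there were 38 (2.64%). A fold enrichment ratio as low was found in 8 of the 1902 (0.421%) and 4 of the 1439 (0.278%). Since Isl1 was chosen on this contrast, these shares describe its place and support nothing.

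**Figure D1:**
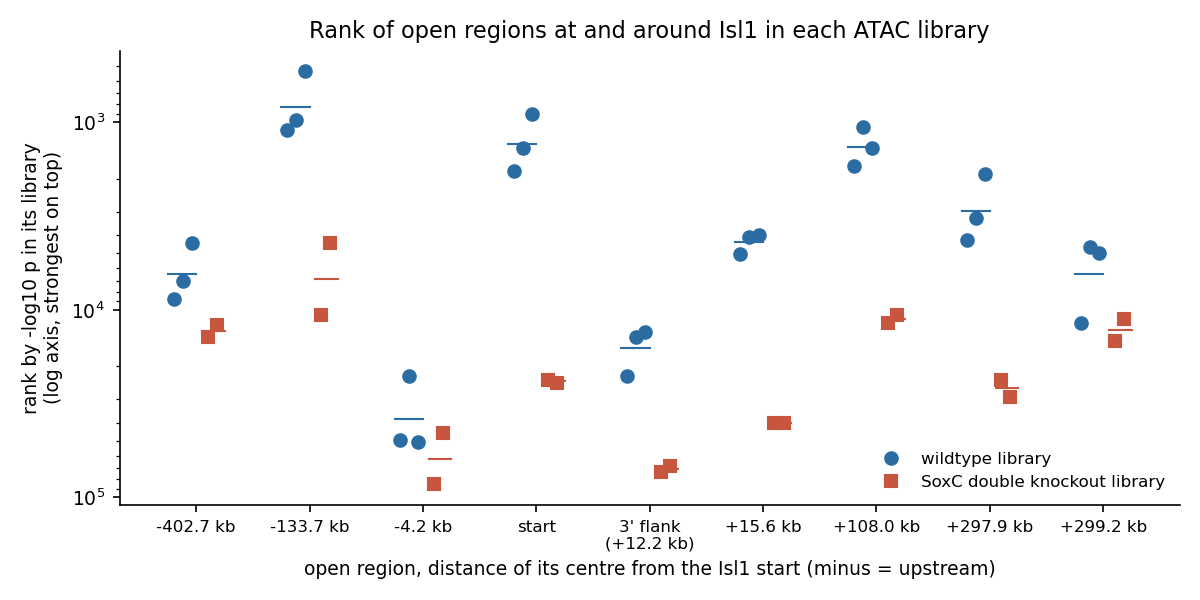
Rank of 9 open regions in each ATAC library (log axis, strongest on top), ordered by distance of the region's centre from the Isl1 start. Circles are 3 wildtype and squares 2 knockout libraries, and bars are geometric means. The start moved from ranks of 900 to 1812 in wildtype to 23673 and 24488 in knockout, while the ranks of the groups overlap at 4.2 kb upstream and 299 kb downstream.

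The region beyond the other end of the gene changed less. It begins 270 bp past the 3′ end (116296999 to 116298000) and ranked 22631, 13959 and 13177 in wildtype, against 72949 and 68433 in knockout. The groups did not overlap, and the log2 change was 2.13, a ratio of geometric means of 4.39. Fold enrichment was 5.58, 6.37 and 5.60 in wildtype against 4.62 and 4.71 in knockout, again without overlap, with means of 5.85 ± 0.453 (SD, n = 3) and 4.67 ± 0.066 (SD, n = 2). Of all regions, 1802 (2.52%) fell in rank by as much. Among the 9289 with a geometric mean wildtype rank from 10000 to 20000 there were 411 (4.42%), and among the 2839 of them at gene ends 23 (0.810%). Of the 10099 regions with at most 2 coding genes within 500 kb, 587 (5.81%) fell by as much.

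A stronger element stood 3932 bp beyond the 3′ end, 15.6 kb from the start (116293797 to 116294338). It ranked 5023, 4081 and 4001 in wildtype, against 39961 and 40175 in knockout, the second largest change of the neighbourhood at 3.21. The libraries of each genotype lay close together and far from the other genotype. Its fold enrichment was 11.8, 11.2 and 9.25 in wildtype, against 8.49 and 8.43 in knockout, a ratio of 0.792.

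The element 4.2 kb upstream of the start (116313585 to 116314129) did not separate the genotypes. It ranked 49527, 22453 and 51036 in wildtype, against 85353 and 45475 in knockout, with knockout replicate 2 inside the wildtype range. Weaker peaks over the gene body and just upstream were found in some libraries only. One at 116299774 to 116300302 was in wildtype libraries 1 and 3 (ranks 85526 and 127848), and one at 116302740 to 116303664 was in wildtype library 1 (156476) and both knockout libraries (190731 and 162118). One at 116305160 to 116305660 was in knockout library 1 (135893), and one at 116312095 to 116312597, 2.7 kb upstream, was in the knockout lists alone (97773 and 104158). None of these was in all 5 lists.

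Lower places in the knockout were not limited to the gene. Of the 30 regions within 500 kb, 19 were lower in the knockout (63.3%, against 30.0% of all regions), 1 was higher (against 24.5%), and 10 overlapped. With ranks as percent of list length, 16 of the 30 were lower, and the split over all regions was 19.1% lower and 35.5% higher. The median change was 1.05, with quartiles of 0.60 and 1.60 and a range from -0.77 to 4.20. Over all regions it was 0.08, with quartiles of -0.54 and 0.69. Without the 4 regions within 5 kb of the gene, 16 of 26 were lower and the median was 1.02. The upstream side held 11 regions, the Isl1 start among them, of which 8 were lower, with a median of 1.01. The downstream side held 19, of which 11 were lower, with a median of 1.07.

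Fold enrichment was counted in the same way. All knockout values were below all wildtype values at 10 of 30 regions (9.22% of all regions) and above them at 6 (40.0% of all regions). The median ratio of knockout to wildtype was 0.972 here and 1.27 over all regions. Both knockout −log10 p values exceeded all wildtype ones at 16 of 30, where 80.7% of all regions were, and lower at 1, where 1.04% were.

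**Figure D2:**
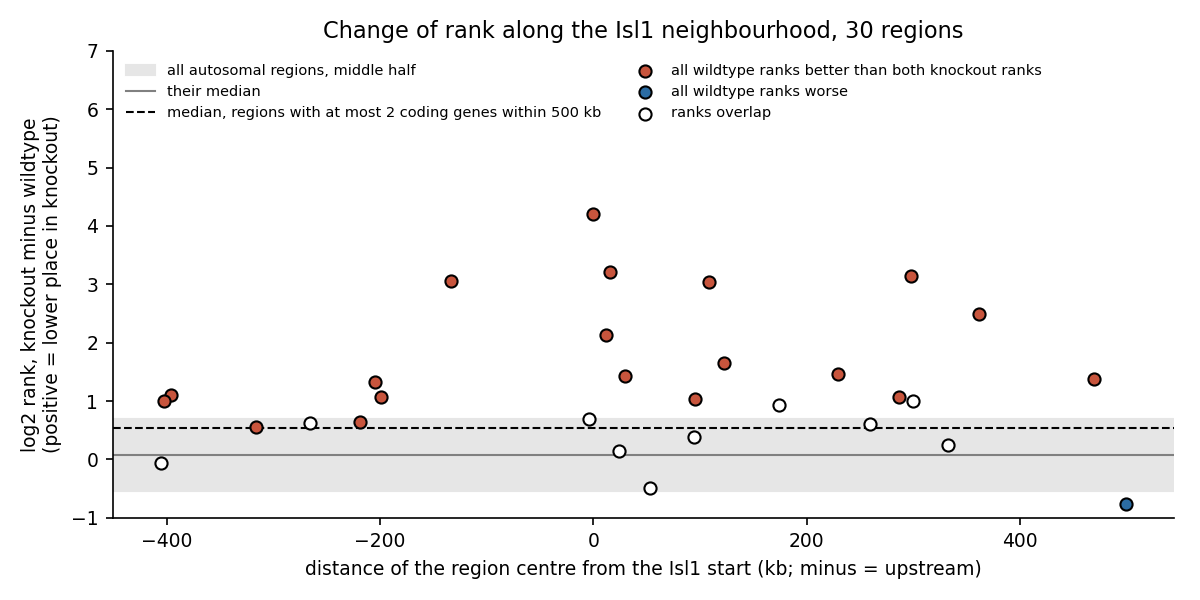
Log2 rank, knockout minus wildtype, of the 30 regions with a peak in all 5 libraries, by distance from the Isl1 start (kb, minus is upstream). The grey band spans the quartiles of all autosomal regions (-0.54 to 0.69) and the dashed line is the median of gene-poor regions (0.54). The start stands highest at 4.20, and 19 regions have all wildtype ranks ahead of both knockout ranks.

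The strongest distal elements changed place by a smaller factor than the gene's start, and their fold enrichment stayed within or near the spread of the libraries. The element 133.7 kb upstream (116443112 to 116443628), the best ranked of the neighbourhood in wildtype, ranked 1097, 968 and 534 in wildtype, against 10668 and 4407 in knockout. The ranks did not overlap and the log2 change was 3.05. Its fold enrichment was 25.1, 21.4 and 22.0 in wildtype, against 21.8 and 24.8 in knockout, a ratio of 1.02 within the spread of the libraries. The element 108 kb downstream (116201436 to 116201964) ranked 1717, 1057 and 1372 in wildtype, against 11736 and 10650 in knockout, a change of 3.04, with a fold enrichment ratio of 0.908. The next elements in wildtype rank, 297.9 and 15.6 kb downstream, differed from these. Both knockout fold values were below all wildtype values there, with ratios of 0.764 and 0.792.

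Farther downstream, neighbouring elements differed from each other. The element at 297.9 kb (116011486 to 116012118) ranked 4242, 3240 and 1887 in wildtype, against 23554 and 29256 in knockout, a change of 3.15 with a fold ratio of 0.764. The next one, at 299.2 kb (116010175 to 116010742), ranked 11699, 4617 and 4961 in wildtype, against 14725 and 11180 in knockout. These values overlapped in 1 library of each genotype, and its fold ratio was 1.44. The centres of these regions stand little more than 1 kb apart.

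Of the other regions with large changes, the one at 361.7 kb downstream (115947704 to 115948303) ranked 15345, 6097 and 7296 in wildtype, against 49059 and 50397 in knockout, a change of 2.50. The one at 122.4 kb downstream (116186895 to 116187701) had a change of 1.65 and a fold ratio of 0.553. At 402.7 kb upstream (116712167 to 116712679), the change was 1.01 with ranks of 8804, 7028 and 4386 against 14041 and 12033, and the fold ratio was 1.22. The knockout ranks were behind all wildtype ranks in all 3 regions.

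Only 3 of the 30 regions changed towards a better place. The region 499.1 kb downstream (115810354 to 115810914) was the single one with all knockout ranks ahead, at 33808 and 19067 against 45584, 38223 and 46704. Its fold enrichment was 6.28 ± 1.46 (SD, n = 3) in wildtype and 16.8 ± 1.40 (SD, n = 2) in knockout. The region at 53.4 kb downstream (116256000 to 116256592) overlapped in rank, with a change of -0.49 and a fold ratio of 2.29. The region 405.3 kb upstream (116714751 to 116715265) had a change of -0.07.

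**Figure D3:**
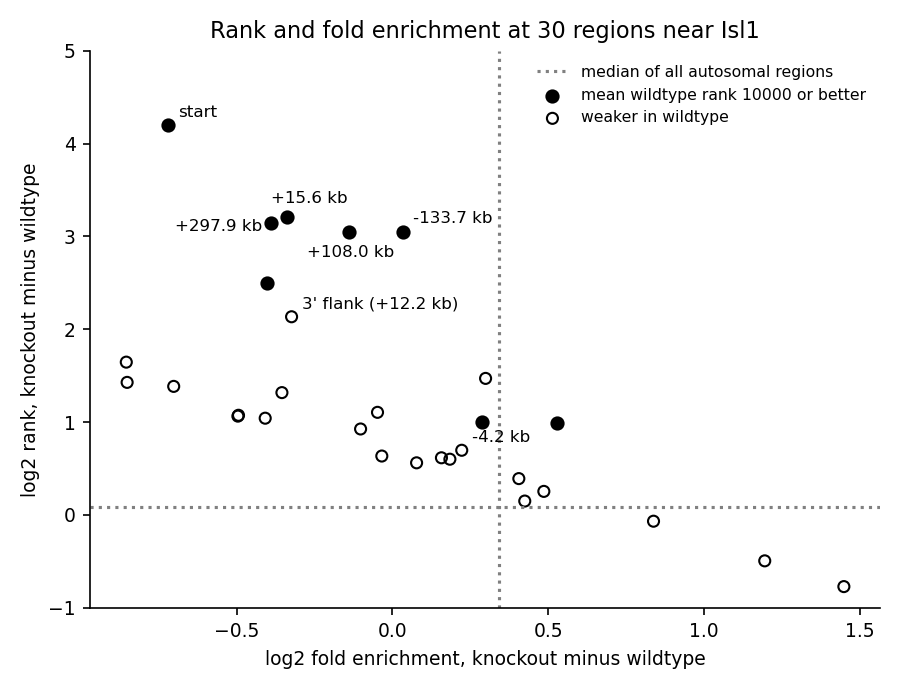
Log2 change of rank (positive is a lower place in the knockout) against log2 change of fold enrichment for the 30 regions. Filled points had a geometric mean wildtype rank of 10000 or better, and dotted lines are the medians of all autosomal regions. The start lies at the far end of the rank axis, and the element 133.7 kb upstream has a rank change of 3.05 with a fold ratio of 1.02.

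Few regions were present in every library of one genotype and in none of the other. In all 3 wildtype lists and no knockout list were 2 of the 118 regions (1.69%, against 1.32% of all autosomal regions), at 67.1 kb downstream (116242252 to 116242940, ranks 138038, 109437 and 111581) and 89.4 kb upstream (116398755 to 116399370, ranks 163085, 123122 and 75101). The reverse, a peak in each knockout list and in none of wildtype, held for 4 of 118 regions (3.39%, against 9.67% of all autosomal regions). The strongest was 428.9 kb downstream (115880511 to 115881032), at 80916 and 33869. The others stood 2.7 kb upstream and 137.8 and 226.3 kb downstream of the start. Presence in part of the libraries was more common, with 44 regions in a single wildtype list alone (37.3%, against 26.2%) and 11 in a single knockout list alone (9.32%, against 14.6%). Most of the 44 were in wildtype library 3, which had 92 merged peaks in the neighbourhood, against 62 and 45 in libraries 1 and 2. The excess therefore rests mainly on 1 library.

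**Figure D4:**
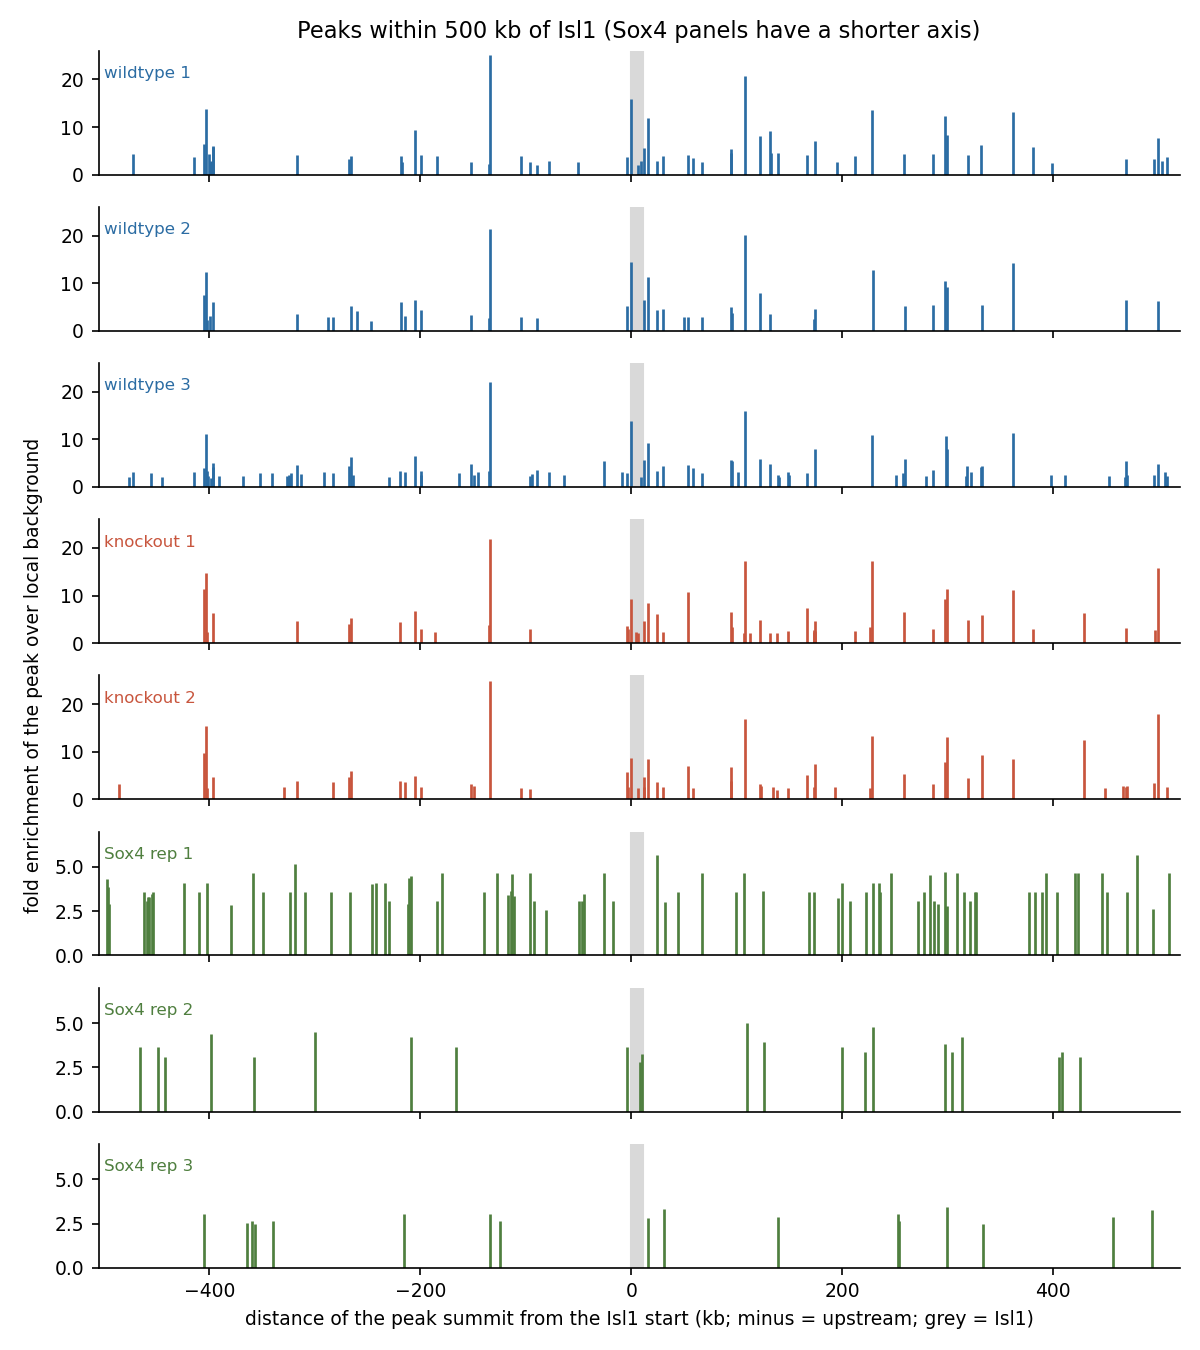
Fold enrichment of each merged peak or Sox4 window against the distance of its summit from the Isl1 start (kb, minus is upstream, grey is Isl1), in 5 ATAC libraries and 3 Sox4 replicates. The peak at the start is 13.8 to 15.8 in wildtype, against 8.60 and 9.17 in knockout, and the one at 133.7 kb upstream is above 20 in all 5. Sox4 panels have a shorter axis.

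The change of place did not stop at 500 kb. Within 5 kb of the gene, 3 of 4 regions were lower, with a median of 2.67, and from 5 to 100 kb 3 of 6, with a median of 0.72. The medians were 1.19 from 100 to 250 kb (8 regions), 1.00 from 250 to 500 kb (12), 0.79 from 500 to 1000 kb (32), 0.71 from 1000 to 2000 kb (54) and 0.35 from 2000 to 5000 kb (176). The share lower was 68.8% from 500 to 1000 kb and 34.9% over chromosome 13, whose median was 0.21. The first region outside the limit downstream (115766769 to 115767738) ranked 8623, 3474 and 3119 in wildtype, against 34260 and 31849 in knockout, a change of 2.86, next to the region inside it at -0.77. Upstream, the first region outside (116879552 to 116880069), which lies inside Parp8, had a change of 1.41 and the last one inside had -0.07. The limit of 500 kb thus marked no boundary in these values.

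Gene-poor regions on all autosomes leaned the same way. Over regions with at most 2 coding genes within 500 kb, which hold all 30 Isl1 regions, the median change was 0.54 and 47.3% were lower (10099 regions). The median fell with each class of gene density, to 0.34, 0.18, -0.15 and then -0.49 where 21 or more coding genes stood within 500 kb, and there 11.4% were lower. The neighbourhood's median of 1.05 and its 63.3% were above the gene-poor values. Whether gene density has a part in the change at Isl1 was not tested.

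The change also differed by wildtype rank. That rank is itself part of the change, and regions near the top of a list have little room to rise. Part of this pattern was thus set in advance. Over all autosomal regions the median change was 1.16 at ranks of 2000 or better and -0.03 behind 50000. Among gene-poor regions with a geometric mean wildtype rank of 2000 or better, the median change was 2.40 and 81.8% of 181 were lower, and the 3 Isl1 regions of that band had a median of 3.05. The start's change of 4.20 was reached by 14 of the 181 (7.73%). From 2000 to 5000 the medians were 1.70 and, for 2 Isl1 regions, 3.18, and from 10000 to 20000 they were 0.98 and, for 2 Isl1 regions, 1.80. Between ranks of 20000 and 50000, gene-poor regions had a median of 0.67 and the 7 Isl1 regions 0.93. Behind 50000 these values were 0.26 and, for 13 Isl1 regions, 0.62. Between 5000 and 10000 the order was the reverse, with 1.37 for gene-poor regions and 1.01 for the 3 Isl1 regions.

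**Figure D5:**
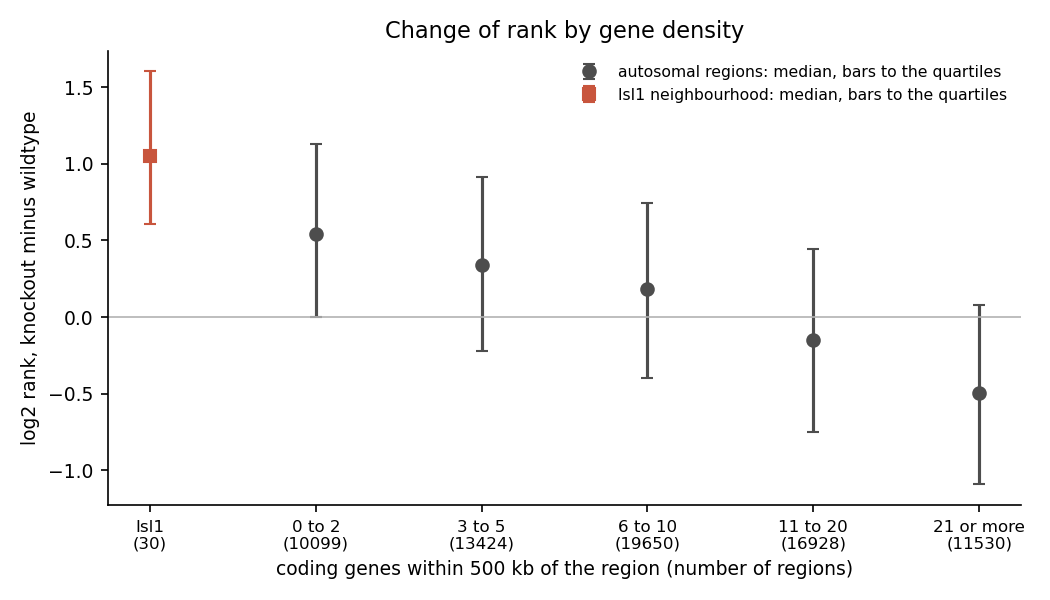
Median log2 rank, knockout minus wildtype, with bars to the quartiles, for the 30 Isl1 regions (square) and for all autosomal regions by the number of coding genes within 500 kb (circles). The medians run from 0.54 in the gene-poor class to -0.49 in the densest class, and the Isl1 neighbourhood is at 1.05.

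Genes of the LIM-homeodomain network moved in both directions. For each gene the region within 1 kb of a gene end with the best wildtype rank was used, and over all 13267 such genes 27% were lower and 33.3% higher, with a median of -0.12. Of the 22 LIM-homeodomain and partner genes with a value, Isl1 included, 9 were lower and 7 higher, with a median of 0.28. Ssbp2, which encodes a partner of Ldb proteins, ranked 419, 139 and 365 in wildtype, against 6335 and 2669 in knockout, a change of 3.89. Pou4f1, a POU-domain factor of sensory neurons, ranked 3425, 3841 and 2503 against 18926 and 17724, a change of 2.51. The groups did not overlap at either gene. In the other direction, Lhx5 (-1.10), Lmx1b (-1.02) and Lmo1 (-0.93) held better places in the knockout.

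The cell types in which Isl1 is known gave the following values. Of 15 prosensory genes with a value, 7 were lower and 1 higher, with a median of 0.58. Besides Isl1 the largest changes were at Hey2, a Notch target (3.10), and Gata3, a zinc finger factor of the prosensory domain (1.52). Pax2, an early otic factor, was the one that was higher (-0.60). Of 13 genes of spiral ganglion neurons, 5 were lower and 1 higher, with a median of 0.52. After Isl1 and Pou4f1 the neuronal tubulin gene Tubb3 had the largest change, 1.63, and the neurotrophin receptor gene Ntrk2 was higher (-0.97). Isl1 belongs to both lists, and a change in progenitors and one in neurons cannot be told apart here.

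Markers of other cells are given beside the same shares over all gene ends, 27% lower and 33.3% higher. Of 8 epithelial genes 3 were lower (the largest change at the splicing factor gene Esrp1, 2.15) and 3 higher (Krt18, a keratin, -1.29), with a median of 0.02. Of 5 mesenchymal genes 3 were lower and none higher, with a median of 0.76, among them Tbx18 at 2.00. Of 7 genes of glia and melanocytes 1 was lower and 2 higher, with a median of -0.75. The melanosome gene Pmel ranked 348, 720 and 488 in wildtype, against 51 and 21 in knockout, a change of -3.92, while its fold enrichment ratio was 1.02. Sox10, listed here with glia and melanocytes, was at -1.42, with a fold ratio of 1.45. Dct, the gene of this list that was lower, was at 0.58, also with a fold ratio of 1.45. The part of cell composition in the values at Isl1 was not tested.

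The genes whose ranks were most like those of Isl1 were taken by Euclidean distance over the 5 log2 ranks. For the region at the 3′ flank, among 15346 genes, they were Tubal3 (distance 0.26), Neto1 (0.28), Vwc2 (0.33), Pard3b (0.33) and Plekha5 (0.34). For the start, a comparison added after its values were seen, they were Frmd3 (1.20), Dop1a (1.22), Tram1l1 (1.37), St8sia4 (1.42) and Bcl11a (1.43) among 13330 genes. Bcl11a, a zinc finger factor, ranked 2113, 1172 and 2059 in wildtype, against 38888 and 26114 in knockout, a change of 4.21, with a fold enrichment ratio of 0.536. The distances for the start and for the flank region cannot be compared with each other. The searches covered different sets of genes. Regions are also fewer near the top of the lists, with 1902 at a geometric mean wildtype rank of 2000 or better and 9289 from 10000 to 20000.

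Sox4 windows were spread over the neighbourhood, with little sharing between replicates. There were 85, 22 and 17 windows within 500 kb in the 3 replicates, at 118 separate sites, of which 4 had windows of 2 replicates and none of all 3. The best ranks within their lists were 3192, 1234 and 5771, with fold enrichments of 5.67, 5.04 and 3.46. In regions open in all 3 wildtype libraries stood 9, 3 and 4 windows. These were 10.6% (95% exact binomial interval 4.96 to 19.2), 13.6% (2.91 to 34.9) and 23.5% (6.81 to 49.9), for counting error only. Over all autosomes the shares were 7.10%, 8.77% and 11.9%, each inside its replicate's interval.

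No Sox4 window lay on the region at the Isl1 start in any replicate. The nearest in the 3 lists was a window of replicate 2 in the element 4.2 kb upstream (rank 23647). A further list of replicate 1 had one nearer to the start, in the region 2.7 kb upstream (17788). Replicate 2 also had 2 windows over the gene, with summits at 116299085 (rank 34942, fold enrichment 3.25) and 116301204 (65256, 2.78), and replicate 3 had one in the element 15.6 kb downstream (26741). Each of these windows of the 3 lists was seen in 1 replicate. The further list also had windows in the elements 4.2 kb upstream (119462) and 15.6 kb downstream (114589). A missing window in such lists is no measure of absent binding, and a window without a control antibody library is not called binding.

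Windows of 2 replicates stood in 3 open regions, all downstream of the gene. The region at 228.9 kb (116080324 to 116081240) had one of replicate 1 (rank 42971) and one of replicate 2 (2141). It ranked 14592, 10462 and 9132 in the wildtype ATAC lists and 30327 and 31628 in the knockout, a change of 1.47, with a fold ratio of 1.23. The region at 297.9 kb had windows of replicates 1 (11803) and 2 (11309) and a change of 3.15. The region at 299.2 kb had windows of replicates 1 (153297) and 3 (5771) and overlapped between genotypes. The fourth shared site, at 116109452 to 116110055, was in no open region. Of the 12 regions with a peak in all 5 ATAC libraries that held any Sox4 window, 6 were lower in the knockout, against 19 of the 30 in all. The difference was not tested.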

How the data were processed

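ATAC-seq (3 wildtype, 2 knockout libraries) and Sox4 CUT&RUN (3 replicates) were used as the peak lists the authors deposited, called per library. The builds mm10 and GRCm38 and the tools MACS2, STAR, deepTools and (Sox4 only) UMI-tools are named in the submitters' processing notes. They give no versions for these tools and differ between the wildtype replicates. The deposited fold enrichment is a ratio of a peak to the local background of its own library. The deposited −log10 p-value and −log10 q-value measure each peak against that background, and the deposited summit is an offset in bp. The names of the knockout lists state a p threshold and a limit on the number of peaks that the wildtype names do not, and the wildtype lists held no X peaks. The single-cell count tables were not analysed here, since no file used here pairs their rows with genes.

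Overlapping peaks of a library were merged on the 19 autosomes and ranked by −log10 p. Windows of 501 bp around the summits that shared at least 1 bp were joined into regions (Python 3.11.15, pandas 2.3.3, numpy 2.4.6, scipy 1.17.1). The ranking was tested on simulated data. No genotype test was made. Genes, promoters and neighbours came from RefSeq tables of GRCm38.p6. Isl1 and the lists were chosen with earlier results of these data known. Regions were named if within 5 kb of Isl1, among the 5 best in wildtype, the 5 largest changes each way, the 5 best of 1 genotype only, or if they held Sox4 windows of 2 replicates. List genes were up to 3 each way by size of change, of which examples are given, and the 5 genes most like Isl1 were named. Alternatives were other rankings, shorter lists, neighbourhoods of 100 and 1000 kb, each library left out, and the replicate block. For Sox4 they were the 20000 strongest peaks and a further list of replicate 1.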

Additional observations from a re-analysis of the deposited data

How the results depend on the processing

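The start of Isl1 had the largest change of place under all 17 alternatives run for it. Its log2 change of 4.20 became 2.78 when peaks were ranked by fold enrichment, and ranged from 3.93 to 4.44 with single libraries left out. At the 3′ flank, 2.13 became 1.06 by fold enrichment and 1.74 when ranked among regions with a peak in all 5 libraries, and its place of 7 became 12 by fold enrichment and 4 within 100 kb. With libraries left out it stayed at 1.99 to 2.38 and place 7. With the 50000 strongest peaks the flank had no value, since its knockout ranks were beyond that limit. The neighbourhood's median of 1.05 became 0.73 as percent of list, 0.50 among regions with a peak in all 5 libraries and 2.26 with the 50000 strongest peaks, and 0.82 to 1.23 with libraries left out. As percent of list the median of all regions moved from 0.08 to -0.24, and by fold enrichment to 0.24.

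The count lower in the knockout was 11 of 19 with the 100000 strongest peaks (28.2% of all regions) and 7 of 10 with the 50000 strongest (27.6%). It was 6 of 10 within 100 kb and 41 of 62 within 1000 kb, where 30.0% of all regions were lower. With single libraries left out it was 19 to 25 among 30 to 35 regions. The rule is then easier to meet, and 33.0% to 39.8% of all regions were lower. The count higher was 0 within 100 kb and 2 within 1000 kb, where 24.5% of all regions were higher. It was 1 to 3 with libraries left out (3 without wildtype replicate 2), where 29.2% to 30.2% of all regions were. The labels do not say that the replicate numbers pair the genotypes. With replicates 1 and 2 taken as pairs (a replicate block), the changes were 1.99 at the flank, 3.93 at the start and 0.96 for the median. By this looser rule 22 of 30 regions were lower and 2 higher, against 41.7% and 33.6% of all regions.

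The 124 Sox4 windows became 34 with the 20000 strongest peaks, 206 with the further list of replicate 1, 20 within 100 kb, 227 within 1000 kb, and 39 (without replicate 1) to 107 with replicates left out. Their share in open regions, 12.9%, became 23.5% with the 20000 strongest peaks. Depth is unknown for the ATAC lists, and ranks carry no measure of it.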

Other observations

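A further peak list of Sox4 replicate 1 held 167 windows within 500 kb of Isl1, of which 15 stood in regions open in all 3 wildtype libraries (8.98%, 95% exact binomial interval 5.11 to 14.4, for counting error only). Over all autosomes the share was 5.66%. Its best rank in the neighbourhood was 1475. It had a window in the region 228.9 kb downstream of the Isl1 start, at rank 16880.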
